A study of Homo sapiens with 6 samples.

Results

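The 10 genes described here are a set chosen to follow the epithelial-mesenchymal transition (EMT). They are the cadherins CDH1, CDH2 and CDH3, the epithelial adhesion molecule EPCAM, the mesenchymal proteins VIM and FN1, and the transcription factors ZEB1, SNAI1, SNAI2 and TWIST1. They were taken by gene symbol from a table of 27942 genes, and all 10 were found. The libraries came from HCT116, an established human colorectal carcinoma cell line grown in culture. Polyadenylated RNA was sequenced from 3 libraries of non-treated cells (NT) and 3 libraries of cells exposed to oxaliplatin at 0.5 µM for 24 h (OXA). Oxaliplatin is a platinum compound that binds DNA and is given for colon cancer. The labels number the libraries of each group from 1 to 3 and do not say whether these were separate cultures, so p-values measure only the spread between these libraries.

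In EMT, epithelial cells lose the junctions that hold them to their neighbours and take on the shape, matrix and motility of mesenchymal cells. SNAIL (SNAI1), SLUG (SNAI2) and ZEB1 bind E-box sequences and repress epithelial genes such as CDH1, while TWIST1 belongs to another family of factors that bind E-boxes. Carcinoma cells often stop between these states and express genes of both, and ZEB1 and the miR-200 family of microRNAs repress each other.

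The libraries held from 32979521 to 40967880 counts each. NT library 1 stood apart from the other NT libraries: the median gene differed by 0.28 and 0.27 on the log2 scale between it and NT libraries 2 and 3, against 0.14 between NT libraries 2 and 3 and 0.14 to 0.19 between OXA libraries. Of 8 colorectal epithelial markers, the keratins KRT8, KRT18 and KRT19 supplied most of the signal, whereas CDX1 and LGALS4 had at most 3 counts in any library. The summed normalized counts of these markers were 62144 to 97605 in NT and 111519 to 136153 in OXA, and the groups did not overlap. KRT20 and VIL1 did not follow the sum. KRT20 stood at 45.92 ± 8.973 in NT against 32.85 ± 4.208 in OXA (SD, n = 3). VIL1 stood at 78.96 ± 19.45 against 60.50 ± 20.52, and neither had an adjusted p-value under 0.05. CDX2 was higher, at 481.2 ± 33.82 against 568.9 ± 32.08 (edgeR adjusted p = 0.283). KRT8, KRT18 and KRT19 had edgeR adjusted p-values of 0.218, 0.115 and 0.0616. Fitted with the replicate number as a block (described below), they had 0.0271, 0.0184 and 0.00673. NT library 1 was the lowest library for each of these keratins. The part of these markers in the results was not tested. Fibroblast markers were at or near 0, with DCN, LUM and THY1 at 0 counts in all 6 libraries and 6 of 9 markers at no more than 3 counts. Only COL1A1 passed the filter on low counts, and the sums of the fibroblast list were 120.2 to 301.5 in NT and 182.1 to 306.5 in OXA. Of 6 leukocyte markers PTPRC, CD3E and CD14 had at most 3 counts, with sums of 174.3 to 215.5 in NT and 200.0 to 228.7 in OXA, nearly all from CD68. The 4 endothelial markers summed to 28.2 to 37.3 in NT and 19.6 to 42.6 in OXA.

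FN1 was the only gene of the 10 with an adjusted p-value under 0.05, and it fell. The stretch before its start site is shown beside those of VIM and ZEB1, mesenchymal genes for which the test gave no call. RefSeq windows (GRCh38.p14) of 250 bases ending at the start site were matched for 4 of the 10 genes, CDH2 being the other. In the lines below, written 5′ to 3′ on the strand of the gene, capitals mark an E-box (CAGGTG or CACCTG), a cAMP response element (TGACGTCA) or a CCAAT box (CCAAT or ATTGG), all searched on both strands.
FN1, chr2:215436069-215436318, minus strand: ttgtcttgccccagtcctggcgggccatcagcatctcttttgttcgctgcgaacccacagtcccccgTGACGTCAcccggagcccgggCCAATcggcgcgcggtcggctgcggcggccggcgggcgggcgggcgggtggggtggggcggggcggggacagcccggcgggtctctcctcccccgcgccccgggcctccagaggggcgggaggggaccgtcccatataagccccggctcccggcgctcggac
VIM, chr10:17227991-17228240, plus strand: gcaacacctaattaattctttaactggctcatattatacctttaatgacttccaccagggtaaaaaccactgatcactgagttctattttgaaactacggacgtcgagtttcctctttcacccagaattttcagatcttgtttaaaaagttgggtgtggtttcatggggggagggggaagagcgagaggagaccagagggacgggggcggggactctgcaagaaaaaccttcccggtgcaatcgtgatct
ZEB1, chr10:31318167-31318416, plus strand: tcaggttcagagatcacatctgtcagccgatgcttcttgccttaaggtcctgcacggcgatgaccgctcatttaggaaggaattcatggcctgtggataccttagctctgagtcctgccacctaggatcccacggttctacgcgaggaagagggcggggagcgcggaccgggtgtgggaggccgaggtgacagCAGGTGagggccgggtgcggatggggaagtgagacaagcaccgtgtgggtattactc
The FN1 window held TGACGTCA with its first base 183 bases before the start site and CCAAT 162 bases before it. The ZEB1 window held 1 E-box, CAGGTG, 57 bases before the start site, and none of these letters stood in the VIM window. Among 35116 RefSeq windows of this length, 17.5% held the E-box, 1.6% the response element and 32.0% the CCAAT box. The start sites are those of RefSeq, and for FN1 and ZEB1 they differ from the GENCODE gene starts given below. These matches describe letters only, and binding was not measured.

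Per length, the epithelial genes led the mesenchymal ones in every library. Levels are in TPM, a measure in which each library has the same total over all genes after division by length, computed from the counts and the length of 1 annotated transcript per gene. In NT the order was EPCAM with 413 ± 47.1 TPM (mean ± SD, n = 3), CDH3 with 107 ± 17.7 TPM, CDH1 with 53.9 ± 4.61 TPM, FN1 with 18.3 ± 0.925 TPM and SNAI1 with 12.8 ± 4.90 TPM. VIM followed with 6.32 ± 1.63 TPM, ZEB1 with 2.59 ± 0.461 TPM, TWIST1 with 1.09 ± 0.204 TPM and SNAI2 with 0.404 ± 0.0678 TPM. CDH2 was last, at 0.0152 ± 0.0146 TPM. The ranges of FN1 and SNAI1 overlapped, as did those of SNAI1 and VIM, and all other neighbours in this order were apart. In OXA the order was the same except that SNAI1, with 19.5 ± 4.86 TPM, stood above FN1, with 10.0 ± 0.919 TPM, and their ranges did not overlap. With the length of all annotated exons of a gene in place of 1 transcript, SNAI1 stood above FN1 in NT as well, and their NT ranges again overlapped.

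**Figure D1:**
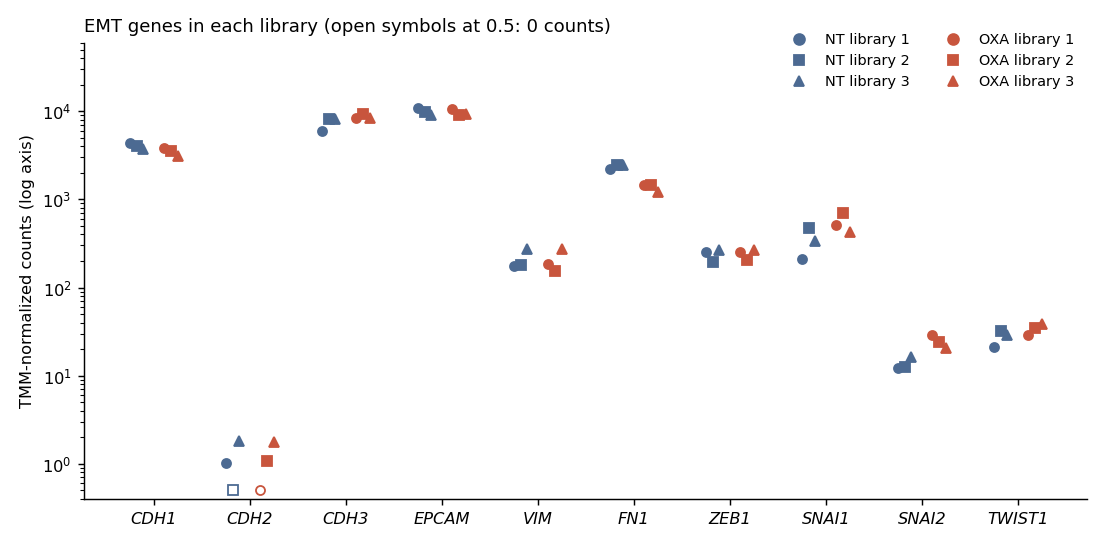
Normalized counts of the 10 genes on a log axis, with 1 symbol per library, NT and OXA in different colors and the symbol shape giving the library number; open symbols at the foot mark 0 counts. FN1 is the gene whose OXA symbols lie below all NT symbols, CDH3 and SNAI2 are those whose OXA symbols lie above them, and CDH2 stays at no more than 2 counts.

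Oxaliplatin was compared with no treatment over the 13727 genes that passed the filter, with edgeR's quasi-likelihood test and Benjamini-Hochberg adjustment. Of the 10 EMT genes 9 passed the filter. None of the 9 was called higher (adjusted p-value under 0.05), where 2.78% of all tested genes were, and 1 was called lower, FN1, where 2.29% of all tested genes were. At an unadjusted p-value under 0.05 there were 2, FN1 and SNAI2. The median log2 fold change was 0.014 over the 9 genes and 0.023 over all tested genes, and no gene of the 9 moved by more than 2-fold.

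NT and OXA libraries that carry the same number shared part of their deviation from the group means, so the comparison was also fitted with the replicate number as a block. With the block, SNAI1 was called higher, and FN1 and CDH1 lower. Over all tested genes, 12.1% were called higher and 10.9% lower in this fit. Without regard to any fit, the OXA libraries lay above all NT libraries for CDH3 and SNAI2, as for 14.5% of tested genes, and below them for FN1, as for 14.4%. For the other 6 tested genes the groups overlapped. An exact permutation test of 3 libraries against 3 cannot give a two-sided p-value below 0.1 and was not used for single genes.

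**Figure D2:**
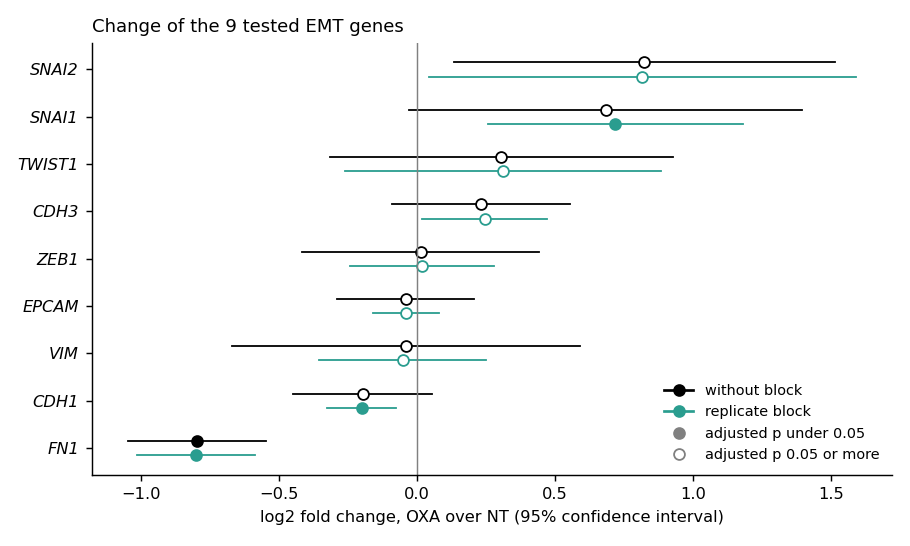
Log2 fold change of OXA over NT for the 9 tested genes (horizontal axis) with 95% confidence intervals, from the fit without the block and the fit with the replicate block, filled symbols marking an adjusted p-value under 0.05. FN1 at -0.80 is filled in both fits, CDH1 and SNAI1 only with the block, and the block narrows the intervals of all these 3 genes.

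CDH1 encodes E-cadherin, the cadherin of epithelial adherens junctions, and lies at chr16:68737292-68835537 on the plus strand (GRCh38, GENCODE release 44, as for all genes below). It had 4335, 4013 and 3735 normalized counts in NT libraries 1 to 3, and 3867, 3567 and 3113 in OXA libraries 1 to 3. Each OXA library lay below the NT library of its number, but OXA library 1 lay above NT library 3, so the groups overlapped. The means were 4028 ± 300.1 in NT and 3516 ± 379.4 in OXA (SD, n = 3). The log2 fold change was -0.20 (95% confidence interval -0.45 to 0.054, edgeR adjusted p = 0.349). With the replicate block it was -0.20 (-0.32 to -0.075, edgeR adjusted p = 0.0408), a fold of 0.871. That call held without both libraries of number 1 and was lost without those of number 2 (edgeR adjusted p = 0.295) or number 3 (edgeR adjusted p = 0.347). These fits hold 4 libraries, and the one without number 1 called 2800 of 13845 tested genes lower. In bulk RNA, fewer cells of a type and less RNA per cell cannot be told apart.

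CDH3 encodes P-cadherin, another classical cadherin of epithelia, and is the upstream neighbour of CDH1 on the same strand (chr16:68636189-68727468). The genes are 9823 bp apart, and no gene of the table lies wholly between them. CDH3 had 5899, 8154 and 8190 normalized counts in NT, and 8354, 9384 and 8398 in OXA. All OXA libraries were above all NT libraries, yet OXA libraries 1 and 3 exceeded NT library 3 only narrowly, and NT library 1 was the low one. Fitted without the block, the log2 fold change was 0.23 (-0.089 to 0.55, edgeR adjusted p = 0.386), and 0.25 with the block (edgeR adjusted p = 0.106). Without NT library 1 it was 0.092, more than 1.5 times smaller. Within the numbered pairs, OXA minus NT on the log2 scale was 0.50, 0.20 and 0.036.

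EPCAM, a homophilic adhesion glycoprotein of epithelial cells (chr2:47345158-47387601, plus strand), had the highest level of the 10 genes. Its normalized counts were 11034, 9707 and 9055 in NT and 10582, 9185 and 9210 in OXA. The groups overlapped fully, with library 1 the highest in each. The log2 fold change was -0.040 (-0.29 to 0.21, edgeR adjusted p = 0.870), an interval that holds changes of up to 0.29 downward. With the block the interval was -0.16 to 0.081, and without NT library 1 the value was 0.043.

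CDH2 encodes N-cadherin, the cadherin that mesenchymal and neural cells carry and that often replaces E-cadherin in EMT (chr18:27932879-28177946, minus strand). NT libraries 1 to 3 held 1, 0 and 2 raw counts of it, and OXA libraries 1 to 3 held 0, 1 and 2. The sum was 3 counts in each group, for which counting error alone allows 0.619 to 8.77 (exact Poisson 95% interval). It did not pass the filter and no fold was computed. A fall or a small rise in N-cadherin mRNA was therefore not detectable at this depth. Of 6 further cadherins, CDH4, CDH5, CDH6, CDH11, CDH13 and CDH17, none passed the filter either, and no library had more than 10 counts for any of them. CDH6 and CDH11 were at 0 counts in all 6 libraries.

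VIM encodes vimentin, the intermediate filament protein of mesenchymal cells (chr10:17228241-17237593, plus strand). It had 177.3, 182.3 and 275.6 normalized counts in NT and 186.6, 153.3 and 277.1 in OXA. Library 3 was the highest in both groups, and the other libraries of the groups were intermixed. On the log2 scale OXA differed from NT by -0.041 (-0.67 to 0.59, edgeR adjusted p = 0.952). This interval holds a change of 1.5-fold in either direction, whereas that of the fit with the block, -0.36 to 0.25, does not.

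FN1 encodes fibronectin, an extracellular matrix glycoprotein that binds integrins (chr2:215360440-215436073, minus strand). It had 2212, 2486 and 2465 normalized counts in NT and 1439, 1467 and 1221 in OXA. The highest OXA library was well under the lowest NT library, and the spread within each group was small beside the gap. The means were 2388 ± 152.3 in NT and 1376 ± 134.6 in OXA (SD, n = 3), a fold of 0.576. On the log2 scale FN1 fell by 0.80 (-1.05 to -0.55, standard error 0.11, edgeR adjusted p = 0.00975), and with the block also by 0.80 (edgeR adjusted p = 0.00464). The 3 numbered pairs gave -0.62, -0.76 and -1.01. Each single library was left out in turn: FN1 kept its call in 5 of 6 fits, and without OXA library 1 the value was -0.83 (edgeR adjusted p = 0.0608). Its fold change stood at percentile 1.8 of all tested genes, counted from the lowest.

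ZEB1 encodes a zinc-finger repressor of epithelial genes (chr10:31318495-31529814, plus strand). It had 255.8, 192.7 and 268.4 normalized counts in NT and 254.5, 204.3 and 264.7 in OXA. In each numbered pair the OXA library was close to its NT library, and library 2 was the lowest in both groups. OXA and NT differed by 0.014 on the log2 scale (-0.42 to 0.44, edgeR adjusted p = 0.978), and with the block 0.017 (-0.24 to 0.28). Its paralogue ZEB2 had at most 4 counts in any library and was not tested.

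SNAI1 encodes SNAIL, a zinc-finger repressor (chr20:49982980-49988886, plus strand). It had 208.9, 477.6 and 333.9 normalized counts in NT and 515.6, 697.8 and 427.2 in OXA. Every OXA library was above the NT library of its number, but NT library 2 was above OXA library 3, so the groups overlapped. The means were 340.1 ± 134.5 in NT and 546.9 ± 138.0 in OXA. The coefficients of variation were 39.5% and 25.2%, against 5.39% and 4.33% that counting alone would give. The log2 fold change was 0.68 (-0.027 to 1.40, edgeR adjusted p = 0.248). With the block it was 0.72 (0.26 to 1.18, edgeR adjusted p = 0.0433), and the numbered pairs gave 1.30, 0.55 and 0.36. This call held when the libraries of number 1, 2 or 3 were left out as a pair. Those fits hold 4 libraries, with 1 residual degree of freedom per gene, and they called many genes. They called higher 2939 of 13845 tested genes without pair 1, 956 of 13764 without pair 2 and 1886 of 13781 without pair 3. Without NT library 1 the log2 fold change without the block was 0.43, and without both libraries of number 1 the blocked value was 0.46, in each case more than 1.5 times smaller.

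SNAI2, the gene of SLUG, and TWIST1, a basic helix-loop-helix factor, were both close to the limit of measurement. NT libraries 1 to 3 gave 12, 12 and 18 raw counts of SNAI2, against 27, 22 and 23 from the OXA libraries, and no OXA library was as low as any NT library. Its summed counts were 42 in NT (exact Poisson 95% interval 30.3 to 56.8) and 72 in OXA (56.3 to 90.7). These intervals cover counting error only, since PCR duplicates cannot be told apart, and the counts may be rounded estimates. The log2 fold change of SNAI2 was 0.82 (0.13 to 1.52), and it did not pass after adjustment, either without the block (edgeR adjusted p = 0.160) or with it (edgeR adjusted p = 0.115). TWIST1 (chr7:19020991-19117636, minus strand) was counted 21, 31 and 32 times in NT, against 27, 32 and 43 times in OXA. These groups overlapped, and the log2 fold change was 0.31 (-0.31 to 0.93, edgeR adjusted p = 0.563). It was 0.16 without NT library 1 and 0.19 without OXA library 3.

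**Figure D3:**
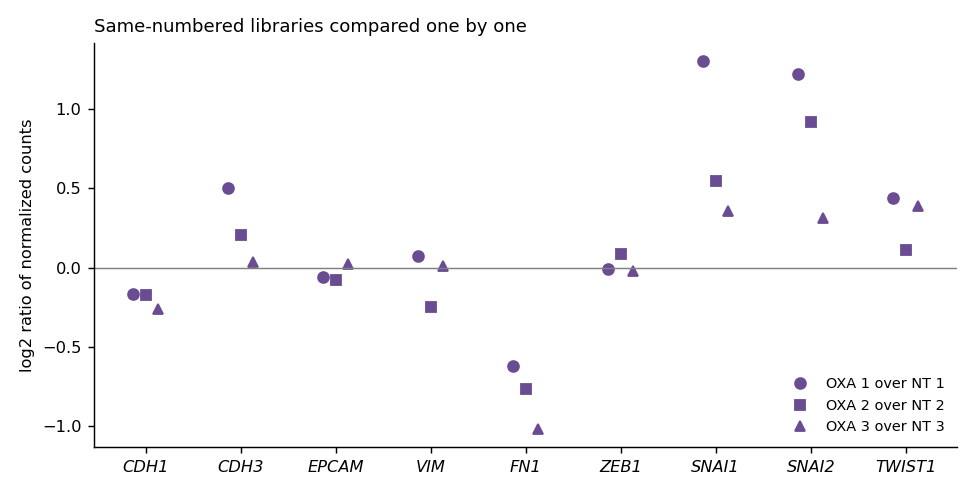
Log2 ratio of normalized counts between the OXA and the NT library of the same number for each tested gene, with 1 symbol shape per pair and a line at 0. All 3 FN1 and CDH1 ratios lie below 0, all 3 SNAI1, SNAI2, TWIST1 and CDH3 ratios lie above it, and those of EPCAM, VIM and ZEB1 lie on both sides. The share of all tested genes with 1 sign in all 3 pairs was not computed. SNAI2, TWIST1 and CDH3 were called neither without the block nor with it.

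Ratios between genes of the same library do not depend on its scaling. The log2 ratio of CDH1 to FN1 was 0.97, 0.69 and 0.60 in NT and 1.43, 1.28 and 1.35 in OXA. All OXA libraries were above all NT libraries, with means of 0.75 ± 0.19 and 1.35 ± 0.072. The log2 ratio of CDH1 to EPCAM was -1.30 ± 0.042 in NT and -1.46 ± 0.10 in OXA, and every OXA library was lower than every NT library, by 0.16 between the means. Among single tested genes, 14.5% had all OXA libraries above all NT libraries and 14.4% had them below. No such share was computed for ratios. Every ratio here contains CDH1, and FN1 itself fell. The ratios of CDH1 to VIM, with means of 4.28 ± 0.45 in NT and 4.14 ± 0.57 in OXA (a difference of -0.14), and of CDH1 to ZEB1, with means of 4.09 ± 0.29 and 3.87 ± 0.29, overlapped between the groups. So did that of CDH1 to CDH3, with means of -0.87 ± 0.37 and -1.31 ± 0.18, where NT library 1 at -0.44 was far above the other NT libraries, at -1.02 and -1.13. Between libraries of the same number, OXA minus NT was -0.16, -0.25 and -0.24 for the CDH1 to ZEB1 ratio and -0.67, -0.37 and -0.30 for the CDH1 to CDH3 ratio, so both were lower in 3 of 3 pairs. How often other genes or ratios share 1 sign in all pairs was not computed.

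**Figure D4:**
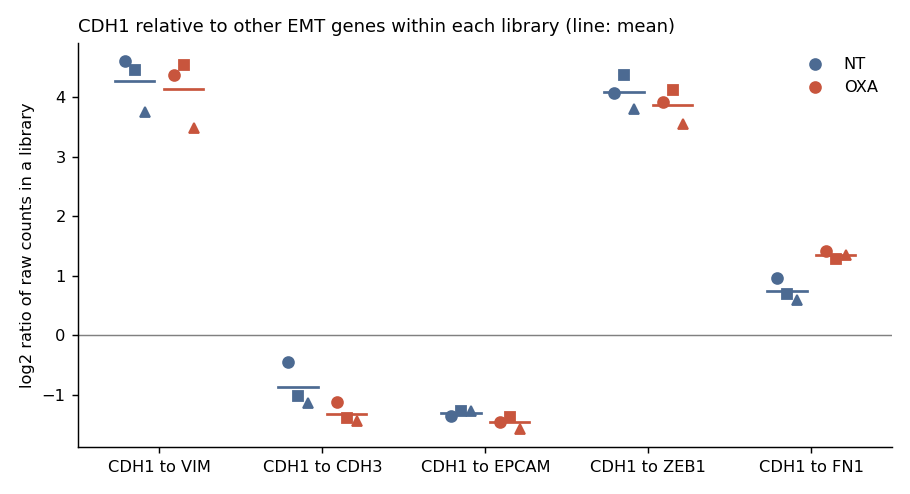
Log2 ratio of the raw counts of CDH1 to those of VIM, CDH3, EPCAM, ZEB1 and FN1 within each library, with 1 point per library, NT and OXA in different colors and a line at each mean. The groups are apart for EPCAM (OXA lower, -1.46 against -1.30) and for FN1 (OXA higher, 1.35 against 0.75), and overlap for the other 3 ratios. Single tested genes were apart in 14.5% (OXA higher) and 14.4% (OXA lower).

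The surroundings of these genes were followed in 7 lists of 93 genes in all, of which 68 passed the filter. In the fit without the block 9 were called higher and 1 lower, and with the block 14 were called higher and 11 lower. Over all tested genes the shares were 2.78% higher and 2.29% lower without the block, and 12.1% and 10.9% with it. The lists were written with earlier results of these libraries known, so their counts are no independent evidence.

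The cadherins act through catenins and linkers to actin. None of 7 genes was called without the block, and the median log2 fold change was 0.036. CTNNB1 (beta-catenin), CTNNA1 (alpha-catenin) and CTNND1 (p120-catenin) had log2 fold changes of -0.039, 0.036 and 0.010, and their groups overlapped. JUP (gamma-catenin) had one of 0.51 (edgeR adjusted p = 0.362 without and 0.053 with the block), and its groups overlapped too. With the block 2 were called higher and 1 lower, where 12.1% and 10.9% of all tested genes were. LIMA1, a linker of the cadherin complex to actin, differed by 0.45 on the log2 scale (edgeR adjusted p = 0.0631 without and 0.00477 with the block), and VCL, vinculin, of 0.22 (0.175 and 0.0416). AFDN, afadin, which ties nectins to actin, had one of -0.27 (0.162 and 0.0283).

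Of 12 other EMT transcription factors 6 passed the filter, and 1 was called lower, where 2.29% of all tested genes were. That gene was FOXC1, a forkhead factor. It had 4166, 3816 and 3671 normalized counts in NT and 2408, 2379 and 2102 in OXA, and the groups were far apart. FOXC1 fell by 0.76 on the log2 scale (edgeR adjusted p = 0.00802, and 0.0566 without OXA library 1). SNAI3, TCF3, KLF8 and HMGA2 had log2 fold changes between -0.12 and 0.13, and TWIST2 and GSC were at 0 counts throughout.

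Among 17 tested regulators of the epithelial state 3 were called higher and none lower, and with the block 5 were called higher and 4 lower. The shares over all tested genes were 2.78% and 2.29% without the block, and 12.1% and 10.9% with it. ELF3, an epithelial ETS factor, had 940.6, 1610 and 1476 normalized counts in NT and 2740, 3123 and 2883 in OXA, and rose by 1.12 on the log2 scale (edgeR adjusted p = 0.0210). ESRP2, an epithelial splicing regulator, had 1082, 1441 and 1186 in NT and 2059, 2264 and 1883 in OXA, and rose by 0.74 (edgeR adjusted p = 0.0242). The groups were apart for both genes. The third was MIR200CHG, the host gene of miR-200c and miR-141, whose counts were 15, 16 and 19 in NT and 41, 49 and 41 in OXA, a log2 rise of 1.43 (edgeR adjusted p = 0.0259). Its microRNAs are shown because ZEB1 mRNA is a known target of both; capitals mark the seed (bases 2 to 8), in which they differ at 1 base (RefSeq, GRCh38.p14).
hsa-miR-200c-3p, chr12:6963742-6963764, plus strand: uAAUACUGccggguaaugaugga
hsa-miR-141-3p, chr12:6964155-6964176, plus strand: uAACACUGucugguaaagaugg
The mature microRNAs were not measured, and ZEB1 mRNA had the values given above.

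These 3 calls did not hold in every fit that left out 1 library. ELF3 and ESRP2 were called without NT library 1 or NT library 2, and had adjusted p-values of 0.0715 to 0.0944 and 0.0784 to 0.114 without any other single library (edgeR). MIR200CHG was called without NT library 1 and had edgeR adjusted p-values of 0.0763 to 0.122 without any other, and of 0.0501 with the authors' factors. The log2 fold changes kept their direction throughout, at 0.92 to 1.24, 0.66 to 0.84 and 1.29 to 1.54. In the opposite direction, FOXA1, a forkhead factor of endodermal epithelia, stood at -0.82 on the log2 scale (edgeR adjusted p = 0.0637 without and 0.0291 with the block). GRHL1, a grainyhead factor of epithelia, had one of -0.46 (0.0720 and 0.0166), and of -0.74 with the authors' factors (edgeR adjusted p = 0.0422). ESRP1, the paralogue of ESRP2 and chosen after its values were seen, had 9491, 8240 and 7411 normalized counts in NT and 6933, 6216 and 5708 in OXA. Its groups did not overlap, and its log2 fold change was -0.42 (edgeR adjusted p = 0.0937 without and 0.00543 with the block), opposite in sign to that of ESRP2. The other genes of the list called only with the block were KLF4 and KLF5, at 0.51 and 0.30, and GRHL2, at -0.31. Their edgeR adjusted p-values with the block were 0.0139, 0.0135 and 0.0281.

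Of 24 mesenchymal effectors 13 passed the filter, and 4 were called higher and none lower, where 2.78% and 2.29% of all tested genes were. Of the 4, 3 are described. With the block 5 were called higher and 1 lower, against 12.1% and 10.9% of all tested genes. ACTA2, smooth muscle alpha-actin, had 195.7, 195.8 and 222.9 normalized counts in NT and 888.7, 889.1 and 677.7 in OXA. Every OXA library was far above every NT library, and ACTA2 rose by 2.00 on the log2 scale (edgeR adjusted p = 0.00178). It kept its call without any single library. TAGLN, an actin-binding protein of smooth muscle, rose by 2.04 from 40.65 ± 11.54 to 166.9 ± 35.87 normalized counts (edgeR adjusted p = 0.00953). It had edgeR adjusted p-values of 0.0509 to 0.0587 without NT library 3, OXA library 1 or OXA library 2. NT5E, the ectoenzyme CD73, rose by 0.50 from 1515 ± 78.75 to 2146 ± 263.6 (edgeR adjusted p = 0.0485), a call that held without NT library 1 and was lost without any other single library (0.0885 to 0.194). It was also lost with other size factors (0.0522), without a filter (0.0534), with limma-voom (0.0524) and with the authors' factors (0.0926). SPARC, a matrix glycoprotein, had 115.2, 120.2 and 283.8 normalized counts in NT and 32.36, 51.08 and 89.71 in OXA. Library 3 was the highest of each group, and the log2 fold change of SPARC was -1.57 (edgeR adjusted p = 0.102 without and 0.00468 with the block), and -1.04 without NT library 3.

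**Figure D5:**
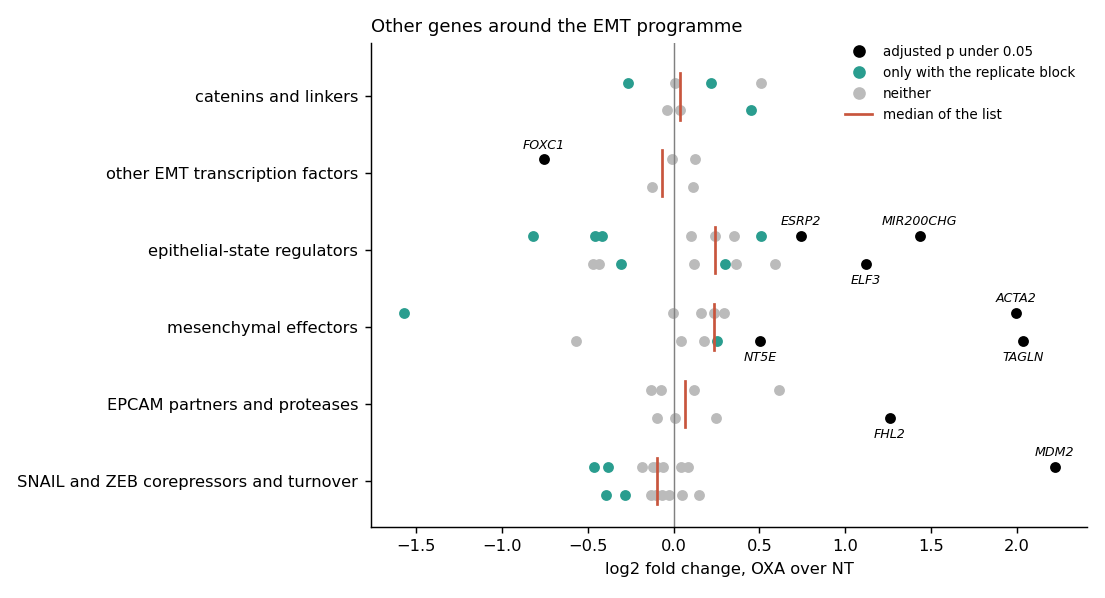
Log2 fold change of OXA over NT (horizontal axis) for the tested genes of the lists around the EMT genes, leaving out those not reported here, black where the adjusted p-value was under 0.05, green where it was so only with the replicate block and grey otherwise, with a line at the median of all tested genes of each list. Regulators of the epithelial state (median 0.24) and mesenchymal effectors (median 0.23) both hold genes called higher, while the medians of the other tested lists lie between -0.10 and 0.064.

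Of 9 partners and proteases of EPCAM 8 passed the filter and 1 was called higher, where 2.78% of all tested genes were. That gene was FHL2, a LIM-domain cofactor that binds the cleaved tail of EPCAM. It had 1702, 1651 and 2220 normalized counts in NT and 4287, 4148 and 4899 in OXA, with the groups well apart, and rose by 1.26 on the log2 scale (edgeR adjusted p = 0.00451). ADAM10 and ADAM17, proteases that can shed EPCAM, had log2 fold changes of -0.075 and 0.0090, and CLDN7, a claudin found in complex with EPCAM, had one of -0.099.

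The 17 corepressors and turnover factors of SNAIL and ZEB1 all passed the filter, and 1 was called higher, where 2.78% of all tested genes were. That gene was MDM2, a ubiquitin ligase and p53 target. MDM2 had 6918, 5485 and 6405 normalized counts in NT and 32401, 27145 and 28115 in OXA, a log2 rise of 2.22 (edgeR adjusted p = 0.000445). With the block 4 were called lower, where 10.9% of all tested genes were, and the OXA libraries of all 4 lay below the NT libraries, as for 14.4% of all tested genes. They were the corepressor SIN3A, at -0.38 on the log2 scale (edgeR adjusted p = 0.0609 without and 0.00623 with the block), and the histone H3K27 methyltransferase EZH2, with one of -0.47 (0.0723 and 0.00607). The others were SUV39H1, an H3K9 methyltransferase, with one of -0.39 (0.155 and 0.0426), and the EZH2 partner SUZ12, with one of -0.29 (0.235 and 0.0378), which was -0.15 without NT library 1.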

How the data were processed

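The authors deposited 1 table with a raw count and a normalized signal per gene and library. The raw counts were whole numbers, which may be reads or estimates rounded by the authors, and counting intervals take them as reads. Dividing the authors' normalized signal by the count gave factors that vary from gene to gene within a library, and this signal served only as an alternative. Per the labels, a stranded poly(A) kit was used, and the submitters' processing notes name Trimmomatic 0.32, STAR 2.7.5b, RSEM 1.3.3, DESeq2 2.13 and GRCh38. The gene annotation and strand setting of the counting are not given in the sources used here. An annotated opposite-strand gene overlaps exons of 7 of the 10 genes, and none of these is in the table, so without a stated strand setting their reads cannot be told apart from those of the 10. Other genes named here, ACTA2 among them, were not checked for such overlaps.

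Counts were filtered with filterByExpr (minimum count 10, minimum total 15), normalized by TMM (factors 0.973 to 1.018) and tested by edgeR's quasi-likelihood test and Benjamini-Hochberg adjustment over 13727 genes. Versions were R 4.3.3, DESeq2 1.42.0, limma 3.58.1 and edgeR 4.0.16. A call was an adjusted p-value under 0.05. The fit without the block was tested on simulated counts, which held no deviation shared by replicate number. The fits with the block were not tested in this way. Library totals were 32979521 to 40967880 counts, and intervals on summed counts cover counting error only. Transcript lengths were known for 99.1% of genes. Deviations from the group means correlated at 0.55, 0.54 and 0.31 for libraries of the same number and at -0.47 to 0.090 for others. Such deviations sum to 0 within a group, so these correlations are not independent of each other. The replicate numbers come from the labels, which do not say what a number stands for, and they were taken to pair the libraries.

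Alternatives were DESeq2, limma-voom, other size factors, no filter, the authors' factors, the replicate block, each library left out and, chosen after the data were seen, the block without each pair. Genes and lists were chosen with earlier results of these data known. Named genes are the 10 and, per list, up to 5 genes called with or without the block, by smallest p-value. Other genes of the lists are named only for context or at the count floor. Some genes that this rule selects are not reported here.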

Additional observations from a re-analysis of the deposited data

How the results depend on the processing

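FN1 kept its direction in all alternatives and its call in all but the fit without OXA library 1. With the authors' gene-by-library factors its log2 fold change was -0.62 (edgeR adjusted p = 0.0298). CDH1, CDH3, SNAI1, SNAI2 and TWIST1 kept their direction throughout. EPCAM, VIM and ZEB1, none of them called, changed sign when libraries were left out, with ranges of -0.14 to 0.043, -0.35 to 0.17 and -0.15 to 0.12, and ZEB1 also without a filter (-0.016). With the authors' factors ZEB1 was at 0.18 (edgeR adjusted p = 0.755), above that range. With the block and without pair 2, VIM was at 0.0090 and ZEB1 at -0.045. The cause was not tested.

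With the replicate block, which pairs libraries by number, 1664 genes were called higher and 1493 lower, against 381 and 315 without it. Of the EMT genes 1 and 2 were called, against 0 and 1, and of the 7 lists 14 and 11, against 9 and 1. DESeq2 called 634 genes higher and 625 lower, and 6 genes of the lists lower. The authors' factors gave 241 and 200, with 3 genes of the lists lower. With single libraries left out, the counts ran from 66 to 623 higher and from 19 to 571 lower, for the EMT genes from 0 to 0 and from 0 to 1, and for the lists from 4 to 10 and from 0 to 3. The highest counts of all genes were those without NT library 1. With the block and without pair 1, 2 or 3, the counts of all genes were 2939, 956 and 1886 higher and 2800, 673 and 1193 lower. Those of the EMT genes were 1, 1 and 2 higher and 2, 1 and 1 lower, and those of the lists 21, 12 and 15 higher and 13, 6 and 9 lower. These fits hold 4 libraries, with 1 residual degree of freedom per gene, so their p-values rest mostly on the spread shared across genes. The CDH3 call in the block without pair 3 (edgeR adjusted p = 0.0396) comes from such a fit. The SNAI1 and CDH1 results without a pair do too.

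The log2 ratio of CDH1 to FN1 differed by 0.40 between the groups in the authors' values and by 0.60 in raw counts. In those values the CDH1 to CDH3 ratio was lower in every OXA than in every NT library. For the CDH1 to ZEB1 ratio OXA minus NT was -0.42 in those values and -0.22 in raw counts, and the groups overlapped in both. With the length of all exons, NT levels were 478 TPM for EPCAM, 136 for CDH3, 77.5 for CDH1, 23.3 for SNAI1, 16.2 for FN1, 3.24 for ZEB1, 1.61 for TWIST1 and 0.488 for SNAI2.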
